A study of Mus musculus with 9 samples.

Results

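The core circadian clock genes were followed in the neural retina of mouse pups at postnatal day 4 (P4). They were taken by name as 10 genes, Arntl, Clock, Per1, Per2, Per3, Cry1, Cry2, Nr1d1, Nr1d2 and Dbp, and all 10 were found among the 53280 gene symbols of the count table and, as 44 transcript rows, in the TPM table. The pups were wildtype or Opn4 knockout (Opn4KO) littermates from crosses of Opn4+/- parents, kept in standard lighting of about 300 lux. Opn4 encodes melanopsin, the photopigment of intrinsically photosensitive retinal ganglion cells. There were 5 knockout and 4 wildtype pools, each made of 4 retinas from 2 animals of the same genotype and taken 6 to 7 h after lights on (ZT6 to ZT7). Polyadenylated RNA of each pool was sequenced as paired reads of 150 bases. The sources used here do not give what the allele removes from Opn4, the strain, the sex of the pups, the litters behind each pool or the length of the light phase. A single time of day was sampled, so these data hold levels and no rhythm, phase or amplitude.

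The mammalian clock is a transcriptional feedback loop that most cells, retinal neurons included, can run. The products of Clock and Arntl (BMAL1) form a dimer that binds E-boxes and activates the Per and Cry genes, whose proteins gather in a complex that inhibits that dimer. In a second loop the same dimer activates Nr1d1 and Nr1d2, which encode the nuclear receptors REV-ERB alpha and beta, and these repress Arntl through RORE elements, where ROR receptors act as activators. Dbp is a direct output of the dimer, and its protein activates genes through D-boxes. Light reaches clocks in part through CREB, which induces Per1 and immediate early genes. In adult rodents, melanopsin cells carry light information to the master clock of the hypothalamus.

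The elements by which these genes are tied to each other were searched in the promoters, since they are what the loop acts through. RefSeq promoters on GRCm38.p6, from 250 bases before to 50 after a start, were at hand for 9 of the 10 genes, in 13 windows, and each motif was searched on both strands. The E-box CACGTG stood in windows of Per1 and Cry1, and in 7.15% of all 32817 promoters. Its variant CACGTT stood in windows of Cry1, Cry2 and Nr1d1, and in 4.69% of all promoters. The D-box TTATGTAA was found in a single clock gene window, that of Per3, which held it at 2 places, and in 0.936% of all promoters. The core of the RORE, AGGTCA, stood in windows of Arntl, Clock, Per1 and Nr1d2, but it is short and was found in 16.3% of all promoters. The cAMP response element TGACGTCA, in 1.79% of all promoters, was not found in the clock gene windows, while its shorter form TGACG, in 20.8% of all promoters, stood in windows of Per1, Cry1 and Cry2. The D-box form TTACGTAA, in 0.119% of all promoters, was not found either. TGACG is part of TGACGTCA, so their shares overlap. A match describes letters in these windows and shows no binding. The stretches around the matches in 5 of these promoters follow, 5′ to 3′ along the gene, upstream of the start, with E-boxes, their variant, D-boxes and RORE cores in capitals and TGACG left unmarked (AACGTG is CACGTT and TGACCT is AGGTCA, read on the other strand).
Per1: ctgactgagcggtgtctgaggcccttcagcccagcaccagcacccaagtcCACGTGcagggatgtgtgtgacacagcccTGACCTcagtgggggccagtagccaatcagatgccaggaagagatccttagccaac
Cry1: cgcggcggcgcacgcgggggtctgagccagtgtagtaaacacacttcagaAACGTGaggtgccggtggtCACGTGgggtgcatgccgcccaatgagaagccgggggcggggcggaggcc
Cry2: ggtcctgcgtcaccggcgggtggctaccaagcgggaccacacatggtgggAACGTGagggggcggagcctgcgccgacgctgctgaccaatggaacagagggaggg
Nr1d1: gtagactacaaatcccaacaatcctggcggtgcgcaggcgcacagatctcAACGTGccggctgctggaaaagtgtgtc
Per3: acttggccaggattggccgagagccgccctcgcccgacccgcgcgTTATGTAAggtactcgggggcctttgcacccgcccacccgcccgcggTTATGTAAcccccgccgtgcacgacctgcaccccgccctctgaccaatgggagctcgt
These stretches are Per1 chr11:69098733-69098867 (plus strand), Cry1 chr10:85185065-85185183 (minus strand), Cry2 chr2:92434180-92434285 (minus strand), Nr1d1 chr11:98775378-98775455 (minus strand) and Per3 chr4:151044766-151044915 (minus strand) on GRCm38. In the Per1 stretch, the E-box begins 166 bases upstream of the RefSeq start and the RORE core 137 bases upstream. This Per1 start lies within the longer gene that GENCODE M21 annotates. In Cry1 the E-box begins 60 bases and the CACGTT variant 79 bases upstream. The variant begins 166 bases upstream in Cry2 and 28 bases upstream in Nr1d1, and the D-boxes of Per3 begin 205 and 158 bases upstream.

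The labels were checked with the targeted gene and with retinal markers. Opn4 stood at 1.07, 1.82, 1.15, 1.42 and 1.35 CPM (counts scaled to library size by TMM) in knockout pools 1 to 5 and at 11.9, 11.4, 12.03 and 11.6 CPM in wildtype pools 1 to 4, a log2 fold change of -3.10 ± 0.14 (SE). Totals ranged from 65.5 M to 86.1 M counts a pool. The 4 photoreceptor markers Crx, Nrl, Rcvrn and Otx2 were present in every pool, with a summed level of 2269 to 2651 CPM in knockout and 2127 to 2276 CPM in wildtype. Of these, Nrl was higher in knockout (log2 fold change 0.29 ± 0.06, adjusted p = 0.0153) and the other 3 did not pass the test. Further marker lists differed between the genotypes or between pools. The 4 progenitor and cell cycle markers Sox2, Mki67, Ccna2 and Top2a summed to 552 to 659 CPM in knockout and to 819 to 998 CPM in wildtype, the 3 cell cycle genes being lower in knockout. The 5 red blood cell markers summed to 73.7 to 99.3 CPM in knockout and 110.0 to 335.2 CPM in wildtype, the most in wildtype pool 3, and all 5 were lower in knockout. The 9 lens markers summed to 18.3 and 14.9 CPM in knockout pools 1 and 2 and to 7.24 to 9.22 CPM in the other 7 pools, with Lim2 at 0 in some pools. Of the 8 lens markers tested in edgeR, 2 were higher in knockout, Cryaa (adjusted p = 0.0394) and Cryab (adjusted p = 0.0304). The ranges of both genotypes overlapped for Cryaa and not for Cryab, and the other lens markers tested did not pass. The part of these differences in the results below was not tested beyond the values given. In bulk RNA, fewer cells of a type and less RNA per cell cannot be told apart.

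The level of each limb of the clock at this hour was then set out. Arntl was the most abundant clock transcript by TPM (transcript abundance corrected for transcript length and library size, summed over the rows of a gene), at 90.8 ± 2.53 (SD over 9 pools) with a range of 87.9 to 95.2. Of the 15200 genes with a mean TPM of at least 1, 86.8% had a lower level. At the other end stood Per2, a main light-responsive repressor, at 2.91 ± 0.22 TPM, with 14.6% of genes below it. The ratio of Arntl to Per2 within a pool was 31.2 on average and 28.3 to 34.4 over the 9 pools.

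Among the activators, Clock was far below its partner. It was at 19.3 ± 2.25 TPM (15.8 to 22.9), and Arntl exceeded it 4.75-fold within a pool, with a range of 4.17 to 5.60. The cryptochromes, which bind and inhibit the activator dimer, led the repressors. Cry2 was at 27.9 ± 1.67 TPM (25.7 to 30.6) and Cry1 at 25.4 ± 1.60 TPM (22.1 to 27.2), with Cry2 above Cry1 in 8 of 9 pools and by 1.10-fold on average. The period genes were lower and differed among themselves. Per1 was at 15.7 ± 1.70 TPM (13.9 to 19.2), 2.28-fold above Per3, which was at 6.85 ± 0.49 TPM (5.85 to 7.39). Per3 was in turn 2.35-fold above Per2. The order Per1, Per3, Per2 was the same in all 9 pools.

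In the second loop, Nr1d2 was at 48.0 ± 3.37 TPM (41.0 to 52.4) and Nr1d1 at 23.8 ± 1.92 TPM (20.6 to 26.1). Nr1d2 exceeded its paralogue in all 9 pools, by 2.02-fold on average and by 1.57-fold in wildtype pool 3 to 2.54-fold in knockout pool 1. Dbp, the output gene, was at 13.7 ± 2.02 TPM (10.8 to 17.0). Arntl exceeded Dbp 6.70-fold (5.54 to 8.59) and Nr1d1 3.82-fold (3.40 to 4.62). By mean TPM the 10 genes were thus ordered Arntl, Nr1d2, Cry2, Cry1, Nr1d1, Clock, Per1, Dbp, Per3 and Per2. Between neighbours in that order, Cry1 and Nr1d1 (log2 ratio 0.09 ± 0.16, SD over 9 pools) and Per1 and Dbp (0.20 ± 0.27) did not differ beyond the spread of their ratio. The ranges also overlapped between Cry2 and Cry1, between Nr1d1 and Clock and between Clock and Per1, each pair keeping its order in 8 of 9 pools.

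**Figure D1:**
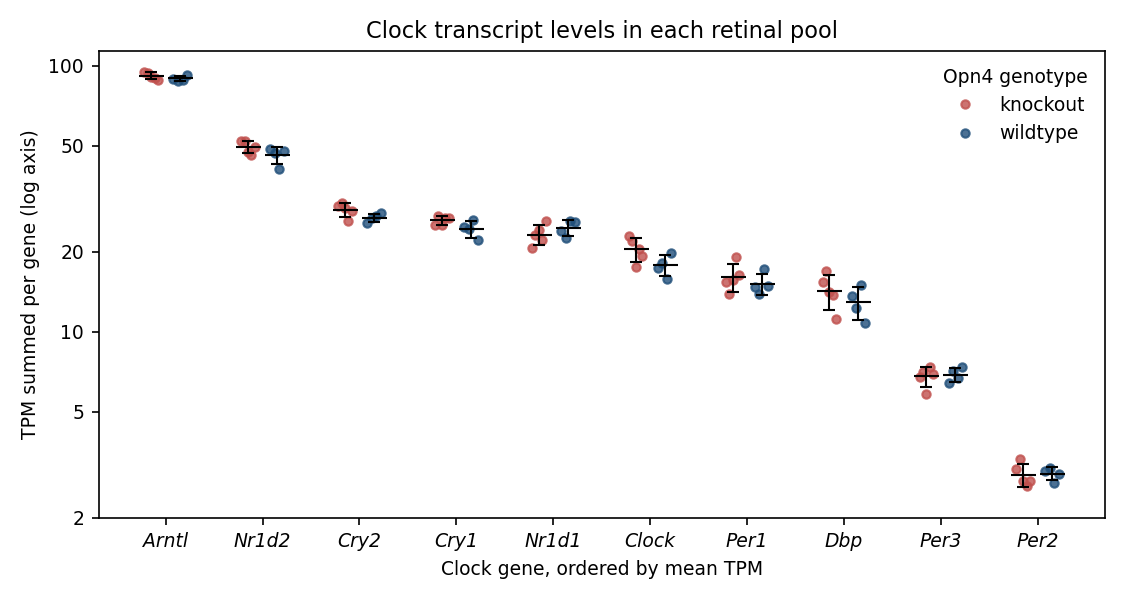
TPM summed per gene (log axis) of the 10 clock genes in each of 5 knockout and 4 wildtype pools. Points are pools, bars are the mean and SD of a genotype. Arntl lay at 87.9 to 95.2 and Per2 at 2.63 to 3.32, and for each gene the points of both genotypes overlap.

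Set out by limb, the activators were the high limb by level per transcript length. The geometric mean TPM of Arntl and Clock was 41.8 ± 2.95 (37.5 to 46.7 over the pools). That of Nr1d1, Nr1d2 and Dbp was 24.9 ± 1.16 (23.6 to 27.3), and that of the 5 repressors was 11.7 ± 0.35 (11.3 to 12.2). The ranges of the 3 limbs did not overlap. The activators stood 1.67-fold above the second loop and output genes (1.49 to 1.83 over the pools) and 3.56-fold above the repressors (3.19 to 3.93). The size of the separation depended on the measure. As median TPM the activators stood 2.31-fold above the second loop and 3.53-fold above the repressors, and the ranges did not overlap either. As summed TPM the activators stood 1.29-fold above the second loop and 1.40-fold above the repressors, with a range (104.5 to 118.1) apart from both. The second loop, at 1.09-fold as a sum, overlapped the repressors in range (82.0 to 92.0 against 74.6 to 82.2 TPM). With only 2 genes, the activator limb rests on Arntl, since Clock by itself lay below Nr1d2, Cry1, Cry2 and Nr1d1. The limbs differ in number of genes and in what each transcript yields as protein, and their baseline over the day is not known here, so a high limb at this hour says nothing of a peak.

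**Figure D2:**
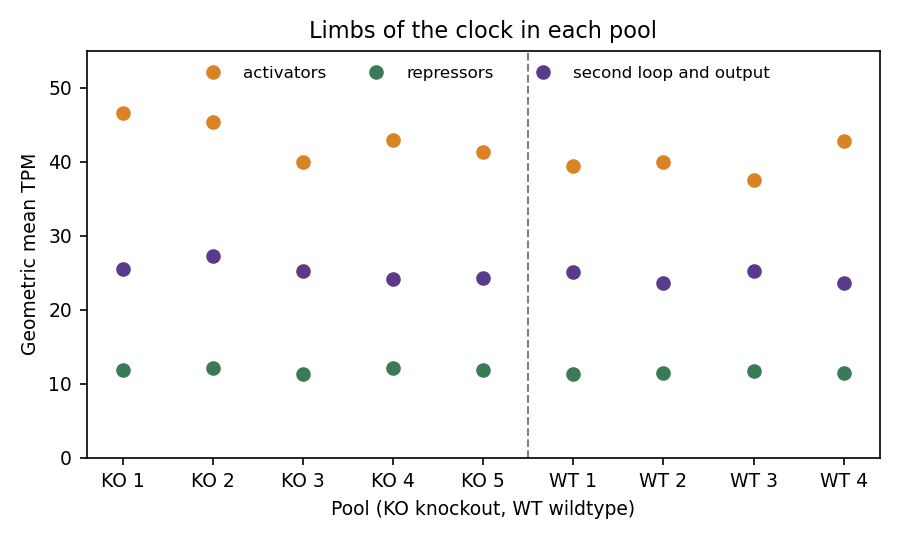
Geometric mean TPM of the activators (Arntl, Clock), the second loop and output genes (Nr1d1, Nr1d2, Dbp) and the repressors (Per1, Per2, Per3, Cry1, Cry2) in each pool. In every pool the activators (37.5 to 46.7) stood above the second loop (23.6 to 27.3) and this above the repressors (11.3 to 12.2).

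The rank of Arntl, and that of Cry2 against Cry1 and Nr1d1, depended on how length was taken into account. When the deposited counts were divided by the merged exon length of each gene (GENCODE M21), Nr1d2 stood at 18.2 ± 1.34 and Arntl at 17.2 ± 0.74 counts per kilobase (scaled to library size), and Nr1d2 was above Arntl in all 9 pools. The log2 ratio of Arntl to Nr1d2 was 0.92 ± 0.08 in TPM and -0.08 ± 0.06 in counts per kilobase. The merged exons span 7523 bases in Arntl and 5409 in Nr1d2, while TPM follows the transcripts that were assigned reads. Clock, with the longest merged exons of the 10 genes (13727 bases), stood at 7.32 ± 0.94. On this scale the activators were 1.22-fold above the second loop (1.06 to 1.35), in place of 1.67-fold, and the repressors were the lowest limb as before. The activators were above the second loop in all 9 pools. Unlike in TPM, the ranges of these limbs over the pools overlapped (9.87 to 12.9 against 8.57 to 10.3). The activators were 2.28-fold above the repressors (2.10 to 2.49), in place of 3.56-fold. Cry1 stood above Cry2 in all 9 pools, by 1.37-fold (1.28 to 1.54), the reverse of their order in TPM. Nr1d1 also stood above Cry2, at 11.2 against 9.3 and in 8 of 9 pools, again the reverse of their order in TPM. Arntl exceeded Clock 2.37-fold, in place of 4.75-fold, Per2 10.1-fold, in place of 31.2-fold, and Nr1d1 1.54-fold, in place of 3.82-fold. Per3 exceeded Per2 1.29-fold, in place of 2.35-fold, with overlapping ranges. Per1, Dbp, Per3 and Per2 were the 4 lowest genes on both scales.

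**Figure D3:**
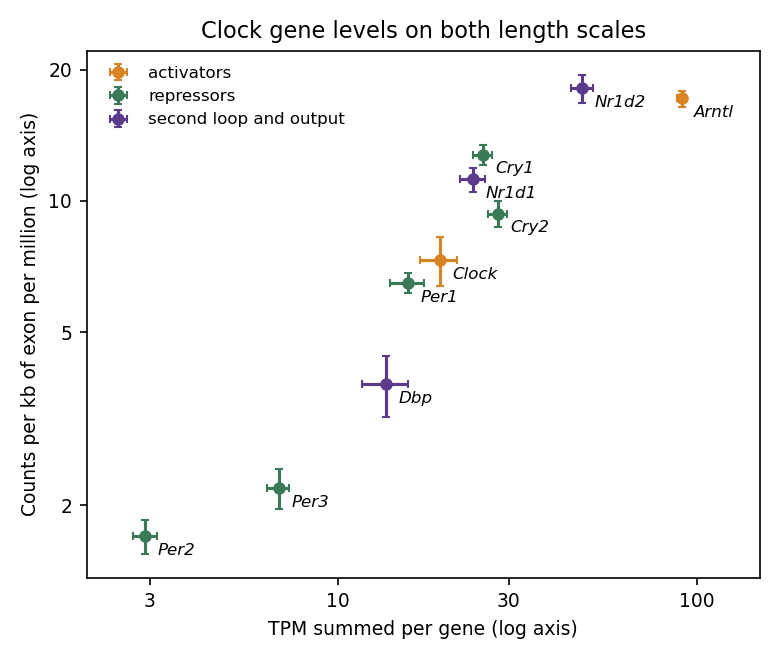
Mean level of each clock gene in TPM (x, log axis) and in counts per kilobase of merged exon, scaled to library size (y, log axis), with SD over 9 pools as bars and limbs by colour. Arntl is far to the right of Nr1d2 in TPM (90.8 against 48.0) but slightly below it on the y axis (17.2 against 18.2).

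Transcript rows showed how the TPM was spread within each gene. A single row carried 98.4% of the TPM of Cry1 and 93.6% of that of Nr1d1, and the leading row of Per2 held all of its TPM to the digits given (100.0%). Arntl was the most divided, with 54.0% in its leading row (49.0 TPM) and 33.4% in its next (30.3 TPM). The leading row of Clock held 69.0%, of Nr1d2 69.9%, of Per3 70.3%, of Per1 80.3%, of Dbp 81.6% and of Cry2 83.4%. The rows carry no transcript identifiers, so which isoforms they are is not known here.

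The genotype comparison asked whether loss of Opn4 went with other clock transcript levels at this hour. No clock gene passed the threshold: 0 of 10 had an adjusted p under 0.05 in edgeR's quasi-likelihood test on the counts, where 3.59% of 21150 genes did. At an unadjusted p under 0.05 there was 1 (Cry1), and DESeq2 also called 0 of 10. The ranges of both genotypes overlapped for all 10 genes, against 8.29% of genes whose ranges did not overlap. The log2 fold changes (knockout minus wildtype) ran from -0.07 to 0.15 with a median of 0.09, beside a median of 0.0012 over all genes tested, and 7 of the 10 were above 0. Without knockout pools 1 and 2, 5 of 10 were above 0 and the median was 0.0064. The median size of change was 0.09, and 0.11 over all genes. The 95% intervals of the edgeR fit on counts reached a rise of at most 1.30-fold (Dbp) and a fall to no less than 0.849 of wildtype (Per3).

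Of the activators, Arntl was at 137.6, 135.6, 127.4, 130.2 and 124.7 CPM in knockout pools 1 to 5 and at 127.7, 126.6, 121.0 and 133.5 CPM in wildtype pools 1 to 4. Clock was at 123.4, 115.5, 88.0, 101.3 and 97.6 CPM in knockout and at 92.8, 99.8, 82.3 and 103.4 CPM in wildtype. Both were highest in knockout pools 1 and 2 and lowest in wildtype pool 3, with the other pools of both genotypes intermixed. The log2 fold change was 0.04 ± 0.04 (SE) for Arntl (edgeR adjusted p = 0.696) and 0.15 ± 0.09 for Clock (adjusted p = 0.458). Without knockout pools 1 and 2, these values were -0.00074 and 0.01. As these pools were the highest for both genes, leaving them out had to lower both values. Without wildtype pool 3, the lowest for both, the values were 0.02 and 0.09. Knockout pools 1 and 2 also had the highest lens and photoreceptor sums (photoreceptor 2645 and 2651 CPM, with 2127 to 2456 CPM elsewhere). The part of these sums in the result was not tested.

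Among the repressors, Cry1 came nearest to the threshold. It was at 43.8, 45.0, 42.9, 44.5 and 45.3 CPM in knockout and at 39.5, 40.6, 43.6 and 38.8 CPM in wildtype, so that 3 of 4 wildtype pools lay below every knockout pool and wildtype pool 3 lay among them. Its log2 fold change was 0.12 ± 0.05, with a 95% interval of 0.02 to 0.23 and an adjusted p of 0.216. Cry2 was at 64.9, 65.7, 61.4, 54.8 and 58.3 CPM in knockout and at 56.7, 58.0, 56.0 and 55.9 CPM in wildtype (log2 fold change 0.11 ± 0.06, adjusted p = 0.364). All knockout pools of Cry2 except pool 4 lay above the narrow wildtype range, and pool 4 lay below it.

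Per1, the period gene most directly tied to light through CREB, was at 37.6, 36.1, 36.3, 38.5 and 39.6 CPM in knockout and at 33.5, 34.5, 37.8 and 34.9 CPM in wildtype (log2 fold change 0.10 ± 0.05, adjusted p = 0.407). Again wildtype pool 3 alone of its group lay within the knockout range. Per2 was at 10.6, 11.6, 9.61, 8.96 and 8.97 CPM in knockout and at 10.1, 10.7, 9.29 and 9.83 CPM in wildtype, and Per3 at 21.2, 21.4, 18.4, 21.9 and 21.4 CPM and at 20.04, 23.3, 17.4 and 24.5 CPM. Their genotype means were close: the log2 fold changes were -0.0036 ± 0.09 (adjusted p = 0.991) and -0.03 ± 0.10 (adjusted p = 0.921), with intervals of -0.21 to 0.20 and -0.24 to 0.18. The sign of Per2 turned without knockout pool 3, 4 or 5 or wildtype pool 2, left out singly (0.0053 to 0.03).

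In the second loop, the REV-ERB genes had point estimates of opposite sign. Nr1d1 was at 30.9, 34.6, 34.0, 32.1 and 37.4 CPM in knockout and at 35.1, 33.0, 37.0 and 36.5 CPM in wildtype (log2 fold change -0.07 ± 0.06, adjusted p = 0.671). Nr1d2 was at 111.5, 106.6, 98.5, 94.3 and 95.1 CPM in knockout and at 93.8, 99.7, 87.2 and 97.0 CPM in wildtype (0.10 ± 0.06, adjusted p = 0.433). Nr1d1 was lowest in knockout pool 1, where Nr1d2 was highest. Nr1d2 lies on chromosome 14, 16.4 Mb from Opn4. Dbp was at 12.6, 14.7, 10.96, 10.9 and 9.36 CPM in knockout and at 12.1, 10.7, 12.3 and 8.80 CPM in wildtype (0.09 ± 0.13, adjusted p = 0.802), so that its highest pool was a knockout and its lowest a wildtype. Without knockout pools 1 and 2 its log2 fold change was -0.08.

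**Figure D4:**
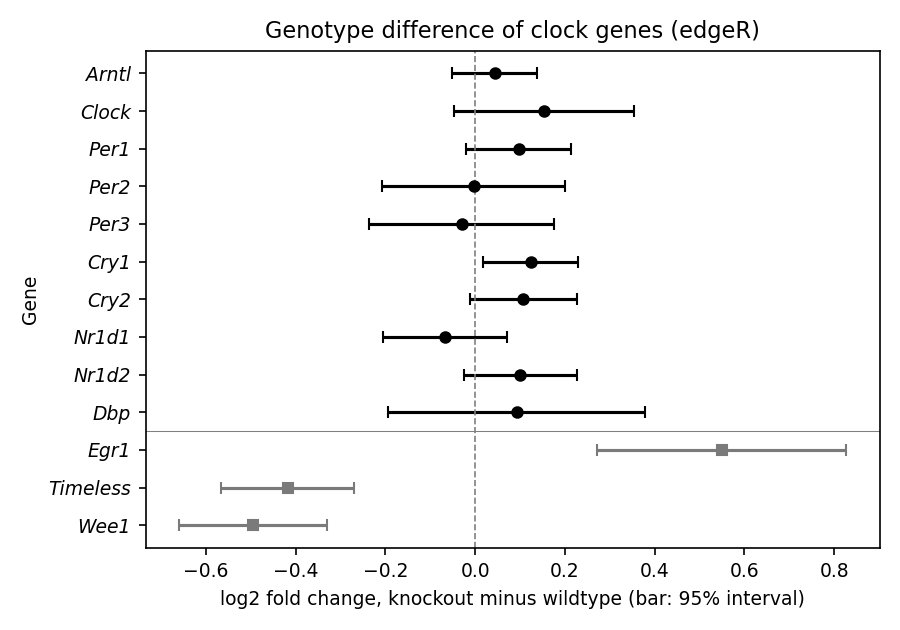
Log2 fold change (knockout minus wildtype, edgeR on counts) with its 95% interval for the 10 clock genes (circles) and, below the line, for the 3 genes of the wider clock pathway that passed the threshold (squares). The clock genes lie between -0.07 and 0.15, and the interval of Cry1 is the one among them that leaves out 0 before adjustment.

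The TPM gave the same count. Summed per gene and tested with limma on log2(TPM + 0.5), 0 of 10 clock genes passed, where 2.16% of 15295 genes did. Their log2 fold changes on that scale were again above 0 in 7 of 10, with a median of 0.09 beside 0.0012 over all genes, and the lowest adjusted p was that of Clock (0.338). The 95% intervals were wider here, up to 1.33-fold for Dbp and down to 0.833 of wildtype for Per2. No transcript row of a clock gene passed, where 0.178% of 48214 rows did. The second row of Clock (18.6% of its TPM) was at 4.13 ± 0.91 TPM in knockout (SD of 5 pools) and 2.90 ± 0.22 TPM in wildtype (SD of 4 pools), with limma adjusted p = 0.488 and overlapping ranges. In the authors' deposited table of the same comparison, 0 of 10 clock genes had a q-value under 0.05, the lowest being 0.542 for Clock, and 1.46% of its 17433 genes did.

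The clock genes differed in how much they varied between pools of a genotype. The within-genotype coefficient of variation of CPM was 15.3% for Dbp, 11.5% for Clock and 10.4% for Per3, and 3.45% for Cry1, 3.84% for Arntl and 4.22% for Per1. Set against genes within 1.5-fold of the same CPM, the variation of Clock exceeded that of 96.9% of them, that of Dbp 90.1% and that of Per3 85.2%, while that of Cry1 exceeded 9.66%. Clock therefore varied more than most genes of its level and its partner Arntl did not (31.9%). Knockout pools 1, 2 and 5 were each the highest pool for 3 of the 10 genes, and wildtype pool 3, with the most red blood cell transcripts (335.2 CPM), was the lowest for 4: Arntl, Clock, Per3 and Nr1d2. By log2 CPM against the mean of all pools, Arntl and Clock deviated in the same direction in 8 of 9 pools. The 3 second loop and output genes did so in 2 of 9 and the 5 repressors in 1 of 9. Nr1d1 and Nr1d2 deviated in the same direction only in knockout pools 2 and 4. Per1 and Per3 differed in direction in knockout pool 2 and in wildtype pools 2, 3 and 4.

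**Figure D5:**
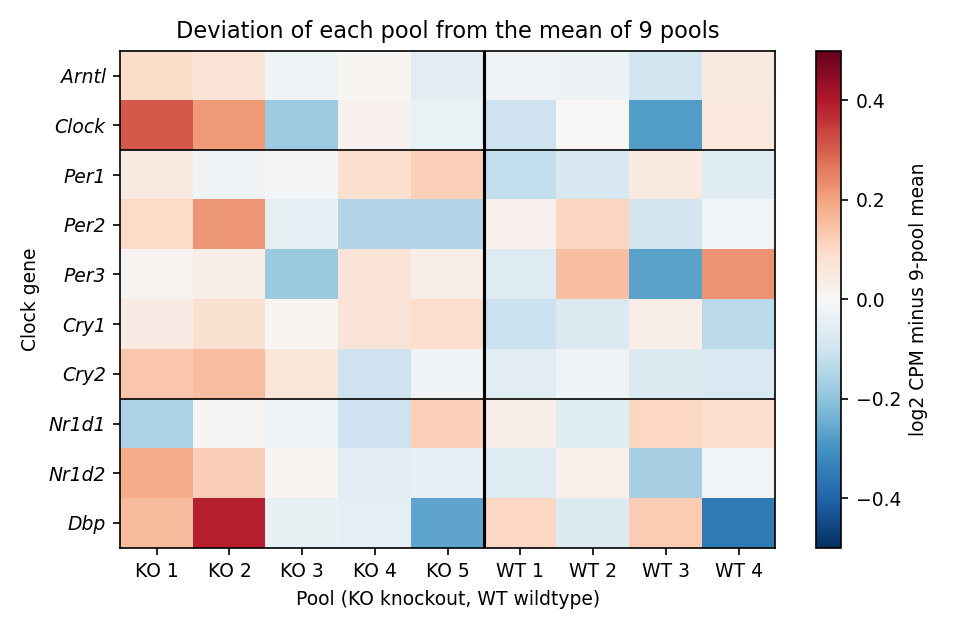
Log2 CPM of each clock gene in each pool minus its mean over the 9 pools, in the order activators, repressors, second loop and output. Clock, Nr1d2 and Dbp are high in knockout pools 1 and 2, Clock and Per3 low in wildtype pool 3, and Dbp lowest in wildtype pool 4 (8.80 CPM).

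Dbp, the most variable of the clock genes, was used to ask which genes varied with it among pools of 1 genotype. Its log2 CPM, centred within genotype, was entered in the edgeR fit beside genotype. No gene of 21149 passed the adjusted threshold (0%). At an unadjusted p under 0.05 in this edgeR fit there were 1181, and none of the 9 other clock genes was among them. That number is not far above the share of 0.05 expected if no gene varied with Dbp. Per2 had a slope of 0.35 ± 0.21 log2 units per log2 unit of Dbp, Cry2 0.21 ± 0.12 and Arntl 0.04 ± 0.11, with adjusted p from 0.923 to 0.988 in this fit. The genes nearest to the pattern of Dbp by p were Gm37811 (slope 1.53), Platr17 (0.63) and Cabp4 (1.67), and nearest in the opposite direction Topbp1 (-0.48), Ston2 (-0.62) and Rpl7a (-0.88), each with adjusted p = 0.879.

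The wider clock pathway was followed in 34 further genes. Of these 1 was higher in knockout (Egr1) and 2 were lower (Timeless and Wee1) in the count test, with a median log2 fold change of 0.01. Over all 21150 genes 3.59% passed, 284 higher and 476 lower, and nothing particular to this list is read from 3 of 34. The activator paralogues Npas2 and Arntl2 (7.08 ± 1.34 TPM), the 3 ROR genes with Rorb the highest (76.7 ± 3.42 TPM), the D-box binding genes Tef (102.6 ± 11.2 TPM), Hlf and Nfil3, and the E-box repressors Bhlhe40, Bhlhe41 and Ciart (7.06 ± 1.22 TPM) did not pass the test. Tef, a relative of Dbp, was thus far above it in TPM. Of 9 kinase and turnover genes, led in TPM by the casein kinase gene Csnk1a1 (225.9 ± 13.8 TPM), 1 passed. So did 1 of 6 output genes, among which Tsc22d3 was the highest in TPM (36.7 ± 2.54). The same held for 1 of 8 genes induced through CREB, among which Crem was the highest in TPM (30.9 ± 2.87). In mean CPM, not corrected for length, Rorb, Tef and Csnk1a1 also led their lists. On that scale Npas2 (4.49) stood above Arntl2 (1.67) and Bhlhe41 (15.3) above Ciart (3.74). Nampt (51.9) stood above Tsc22d3 (35.0) there, and Dusp1 (25.95) above Crem (19.55).

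Wee1, a kinase gene that restrains entry into mitosis and is a known clock output, was at 11.3, 12.2, 14.6, 12.8 and 12.7 CPM in knockout and at 17.8, 18.4, 17.3 and 18.3 CPM in wildtype. Timeless, which takes part in replication fork protection and has been tied to the clock, was at 16.1, 17.4, 18.9, 17.4 and 18.9 CPM in knockout and at 23.6, 23.0, 22.5 and 25.8 CPM in wildtype. For both genes every knockout pool lay below every wildtype pool. The log2 fold change was -0.49 ± 0.08 for Wee1 (adjusted p = 0.00251) and -0.42 ± 0.07 for Timeless (adjusted p = 0.00371). Both also serve the cell cycle, and the progenitor and cell cycle marker sum moved with them (552 to 659 CPM in knockout, 819 to 998 CPM in wildtype); its part in the result was not tested. In TPM, Wee1 passed (adjusted p = 0.0289) and Timeless did not (adjusted p = 0.0907). In the authors' deposited table the reverse held, with a q-value of 0.159 for Wee1 and 0.0280 for Timeless.

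Egr1, an immediate early gene that neurons induce on stimulation, was at 21.8, 17.8, 17.8, 15.5 and 15.3 CPM in knockout and at 13.0, 12.7, 13.5 and 9.01 CPM in wildtype. Every knockout pool lay above every wildtype pool, and the log2 fold change was 0.55 ± 0.13 (adjusted p = 0.0326). The call did not hold without knockout pool 1, 2 or 3 or wildtype pool 1, 2 or 4, left out singly (adjusted p 0.0609 to 0.0741), nor in TPM (adjusted p = 0.0676). In the authors' deposited table Egr1 had a q-value of 0.0237. Without knockout pools 1 and 2 together the log2 fold change was 0.42 (adjusted p = 0.150). Fos, Fosb, Junb, Nr4a1, Sik1, Crem and Dusp1 did not pass.

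The genes stand on GRCm38 (GENCODE M21) at chr7:113207465-113314126 (Arntl), chr5:76209868-76304792 (Clock), chr11:69095217-69109960 (Per1), chr1:91415982-91459324 (Per2), chr4:151003652-151044665 (Per3), chr10:85131700-85185064 (Cry1), chr2:92403646-92434043 (Cry2), chr11:98767932-98775333 (Nr1d1), chr14:18204054-18239127 (Nr1d2) and chr7:45705088-45710203 (Dbp). Some share exon bases with a gene on the opposite strand. The sources used here do not say whether the counting used strand, so reads from the shared bases cannot be assigned to either partner. Dbp shares 539 exon bases (18.0% of its merged exons) with Sphk2, and Nr1d1 shares 263 (8.55%) with Thra, a thyroid hormone receptor gene at 494 CPM in knockout and 506 CPM in wildtype, against 33.8 and 35.4 CPM for Nr1d1. Neither partner passed the test (adjusted p = 0.738 for Sphk2 and 0.877 for Thra). Cry2 shares 295 bases with D930015M05Rik and Arntl 33 with Gm45355.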

How the data were processed

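Neural retina from P4 pups was compared between 5 Opn4 knockout and 4 wildtype pools. The authors deposited a table of whole-number counts per gene symbol, made by a program that the sources used here do not name; its totals exceed the 42.7 ± 3.9 M reads a sample that the submitters state. The authors also deposited TPM per transcript row, made with kallisto 0.46.1 on GRCm38 after Trimmomatic 0.39 per the submitters' processing notes. The column sums of these deposited values (953963 to 1083977) show a rescaling between samples, so they were treated as a signal and not as strict TPM. Rows without a gene symbol held under 1% of it and were left out. The authors' deposited comparison, which per the submitters' processing notes came from sleuth 0.30.8, gives p-values and q-values, with effects on a natural log scale per the file headers; only its q-values are printed.

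Counts were tested with edgeR 4.0.16 in R 4.3.3 (filterByExpr, TMM, quasi-likelihood, two-sided) on all genes, adjusted by Benjamini-Hochberg, with calls at an adjusted p under 0.05. TPM was tested with limma 3.58.1 on log2(TPM + 0.5) where at least 4 pools reached 1 TPM, a scale that understates changes of low genes. In the fit on Dbp, its log2 CPM was a covariate beside genotype. Levels, ratios and limbs were described over pools with no test. Scripts were tested on simulated data. The clock genes, the pathway and marker lists and the rule for named genes (the 10 clock genes, Opn4, each pathway gene past the threshold, the pathway gene of highest TPM in each list, and the 3 genes in each direction with the smallest p in the Dbp fit at a mean CPM of at least 1) were chosen with earlier results of these data known. The alternatives were DESeq2 1.42.0, other scalings and filters, pseudocounts, a replicate block, each pool left out, knockout pools 1 and 2 left out, other anchor genes and other length scales. Some marker genes are not reported here. Pools came from separate animals, and p-values measure the spread between them. The litters behind each pool are not given, so the tests treat pools as independent though some may share a litter. Depth was 65.5 M to 86.1 M counts a pool; standard errors cover both counting and pool spread.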

Additional observations from a re-analysis of the deposited data

Results flagged for a closer look

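Per3 in knockout pool 3 stood apart from the other knockout pools. It was at 18.4 CPM there, while the other 4 knockout pools lay between 21.2 and 21.9 CPM, and the gap took 0.776 of the range of the group, above the limit of Dixon's test for 5 values. It was the single case among 40 groups of values examined (10 clock genes, 2 genotypes, CPM and TPM), and about 1 in 20 such groups would pass the limit by chance. Wildtype pool 3 was lower still, at 17.4 CPM. Without knockout pool 3 the log2 fold change of Per3 was 0.0083, in place of -0.03.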

How the results depend on the processing

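No clock gene was called on the counts, the summed TPM or the transcript rows under any alternative that was run. The log2 fold changes of Clock, Per1, Cry1, Cry2, Nr1d1 and Nr1d2 kept their sign under the 17 count alternatives, and so did those of Timeless and Wee1, which also kept their calls. Egr1 lost its call under 8 of the 17, with log2 fold changes of 0.42 to 0.61 and adjusted p from 0.000472 to 0.150. With single pools left out, the log2 fold change ran from -0.064 to 0.032 for Per2, from -0.12 to 0.041 for Per3 and from -0.0040 to 0.16 for Dbp, and the number of genes called in the fit on Dbp was 0 or 1 (1 without knockout pool 2). Without knockout pools 1 and 2 the log2 fold change was -0.00074 for Arntl and -0.081 for Dbp. The log2 ratio of Arntl to Nr1d2 turned to -0.076 in counts per kilobase of exon, and that of activators to second loop, 0.74 in TPM as a geometric mean, was 1.21 as a median, 0.36 as a sum and 0.29 in counts per kilobase, the last 2 added after seeing the data; the cause was not tested. Over all genes, DESeq2 called 1491 of 16225, against 760 of 21150 in edgeR and 486 of 21374 without knockout pools 1 and 2.

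The labels give pools 1 to 4 of both genotypes the same numbers. A paired fit with these numbers as a replicate block (8 pools) called 0 of 10 clock genes, 4 pathway genes in place of 3 and 915 of 20893 genes, and turned Per2 to 0.024; it turned no other clock gene. Deviations of same-numbered pools did not move together (correlations of -0.045 to -0.00020 over 2000 genes), so the numbers are not treated as pairs. The count of 0 in the fit on Dbp comes from edgeR alone. Its 1181 genes at an unadjusted p under 0.05 are not far above the share of 0.05 expected if none varied. With Nr1d1 or Per1 in place of Dbp the count was also 0.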
